A study of Homo sapiens with 9 samples.

Results

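The arrays taken at 3 and 4 h after stellate cell supernatant was added were set against those taken at 1 and 2 h, which are 4 of the 9 arrays of the series. The members were chosen by the hour in the sample labels, 2 arrays on each side. MiaPaCa2 is an established human pancreatic carcinoma cell line, and the supernatant came from pancreatic stellate cells that the titles call naive. The labels do not say what the control cells received: the description calls that array a control, while its title carries the same treatment wording as the others. Values set against it are read with that limit. All 4 arrays received the supernatant, so the comparison is between an early and a slightly later time and not with untreated cells. The other arrays were 5, 6, 7 and 24 h of supernatant and 1 control at 24 h. No hour has a second array, and nothing in the labels says that hours came from separate cultures. The neighbouring hours therefore stand in for replicates. The spread they give mixes technical scatter with any true change from one hour to the next.

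Fresh growth factors act on cells in waves. Immediate early genes such as FOS and EGR1 are switched on through the ERK kinases and serum response factor, and their short-lived mRNAs soon decline again. At the same time AKT signalling keeps FOXO transcription factors out of the nucleus, so genes that FOXO factors maintain in resting or starved cells lose their mRNA more slowly. Entry into the cell cycle follows later, when E2F factors drive the genes of DNA replication. Pancreatic stellate cells, the fibroblast-like cells of pancreatic tumours, secrete growth factors and cytokines that act on the carcinoma cells.

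The values are log2 intensities per gene from the authors' RMA processing, and a difference of 1 means a 2-fold ratio. Of 12402 genes tested with limma, 0 (0%) passed an adjusted p of 0.05, where the smallest adjusted p was 0.33. At an unadjusted p under 0.05 there were 1233 genes, 470 higher (3.79%) and 763 lower (6.15%) at 3 to 4 h. With each array shifted to the same median the split was 682 higher and 552 lower, so the balance between directions moved with the scaling. Both arrays of 3 to 4 h lay above both arrays of 1 to 2 h in 2189 genes (17.7%) and below both in 3091 (24.9%). The gene groups are read against these last shares. Their members were chosen with earlier results of these data known, so a share describes the listed genes and not a whole class. A ratio of at least 1.5-fold together with separate sides was met by 5 genes that were higher (0.0403%) and 12 that were lower (0.0968%) at 3 to 4 h. Because no gene passed the adjusted test, "higher" and "lower" here describe measured values and not calls.

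The labelled cell type was checked on markers. Keratin 18 and vimentin averaged 13.45 and 13.95 over the 9 arrays, while the epithelial adhesion genes EPCAM and CDH1 were low at 2.60 and 3.50. Of 20 stellate cell and fibroblast markers with a probe set, 13 averaged 5 or more. They included RGS5 at 12.16, S100A4 at 12.55, COL1A2 at 10.94 and COL6A3 at 9.24, whereas LUM, POSTN, SPARC, FAP and PDGFRB lay between 2.35 and 3.98. Of 10 leukocyte markers, LYZ (7.83), CD14 (6.22) and CD74 (5.18) averaged 5 or more, and the pan-leukocyte gene PTPRC was at 3.64. LYZ was 8.01 to 8.21 at 1 to 4 h, against 5.70 in the control. Of the fibroblast list, 5 of 13 were lower at 3 to 4 h with separate sides (38.5%, against 24.9% of all genes). In the same list 1 was higher, and the median difference was -0.05. The 5 h and control arrays stood apart from the rest, with median correlations of 0.9906 and 0.9905 with the other arrays, against 0.9957 to 0.9968 for the other 7. Both 3′ to 5′ measures of RNA integrity separated the 2 sides. The log2 excess of the 3′ over the 5′ ACTB probe set was 1.86 and 1.97 at 3 and 4 h, against 1.66 and 1.59 at 1 and 2 h. The same excess for GAPDH was 0.147 and 0.131 at 3 and 4 h, against 0.109 and 0.111 at 1 and 2 h. Both were highest at 5 h, where that of ACTB was 2.24. Their part in the results was not tested.

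Transcription factors of the immediate early class were lower at 3 to 4 h. FOS, the AP-1 subunit that defines this class, read 6.77, 5.89, 4.97 and 4.97 at 1, 2, 3 and 4 h, so both later arrays lay well below both earlier ones. It averaged 4.97 at 3 to 4 h, against 6.33 at 1 to 2 h, a difference of -1.36 ± 0.25 (SE) or 2.57-fold, with a limma adjusted p of 0.33. FOS had the largest difference of all genes tested. It read 4.59, 4.92, 5.14 and 4.18 at 5, 6, 7 and 24 h and 4.33 in the control. Its mean over the 9 arrays passed the filter, a mean of 5 or more, only through the 1 and 2 h arrays. EGR1, a zinc finger factor induced by ERK signalling, read 11.71, 10.73, 10.30 and 10.42. It had a difference of -0.86 ± 0.30, with probe sets between -0.91 and -0.30. Most of the decline of EGR1 lay between 1 and 2 h, inside the early side, and there the decline counts as spread. EGR3, a relative of EGR1, was still at its height at 2 h, with 6.95 and 7.16 at 1 and 2 h before 6.62 and 6.50 at 3 and 4 h (difference -0.49 ± 0.09). JUNB, another AP-1 subunit, read 7.68, 7.19, 6.99 and 7.00. IER2 read 11.63, 11.41, 11.24 and 11.17. Of 17 measured members of the immediate early list, 10 had separate sides with lower values at 3 to 4 h (58.8%, against 24.9% of all genes) and 1 with higher values. The median difference of the list was -0.12, against -0.01 over all genes. Members without separate sides included JUN, FOSL1 and ATF3, whose differences were -0.06, 0.07 and -0.06.

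EGR1 carries binding motifs for serum response factor next to its start, so its promoter is shown. It covers 250 bases before to 50 after the start at chr5:138465229-138465528 (plus strand, RefSeq, GRCh38.p14), with the CArG boxes in capitals at -105 and -83:
EGR1: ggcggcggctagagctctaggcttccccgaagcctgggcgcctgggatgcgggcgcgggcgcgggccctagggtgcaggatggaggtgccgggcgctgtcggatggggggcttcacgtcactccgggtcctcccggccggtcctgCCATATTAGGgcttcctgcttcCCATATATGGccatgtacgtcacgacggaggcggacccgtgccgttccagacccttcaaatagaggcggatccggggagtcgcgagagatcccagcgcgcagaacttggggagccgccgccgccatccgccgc
A CArG box was found in 1.07% of the 10049 tested genes with a promoter in the table, and in 2 of 14 promoters of the immediate early list (14.3%). Among the 15 genes with separate sides and the largest negative differences, EGR1 was the only one of 14 promoters with a CArG box. A match of letters in this window is a description and not evidence of binding.

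Among genes that switch ERK and stress kinase signalling off again, single members were lower, while the medians of both lists were -0.03, against -0.01 over all genes. DUSP6, the phosphatase that removes the activating phosphates of ERK, read 7.01, 6.62, 6.24 and 6.45 at 1, 2, 3 and 4 h (difference -0.47 ± 0.14). SPRY1 and SPRY2, Sprouty inhibitors of receptor signalling, had differences of -0.29 ± 0.11 and -0.23 ± 0.08, with the probe sets of SPRY1 between -0.29 and 0.07. Among 18 measured ERK feedback and output genes, 6 were lower with separate sides (33.3%, against 24.9% of all genes) and 1 was higher (5.56%). ETV5 and SPRY4, which ERK also induces, were lower by little more than their standard errors, with differences of -0.14 ± 0.12 and -0.13 ± 0.11, and the probe sets of ETV5 lay between -0.14 and 0.04. DUSP1, a nuclear phosphatase of p38 and JNK, read 9.42, 9.15, 8.86 and 8.93 (difference -0.39 ± 0.10). ZFP36, which marks AU-rich mRNAs for decay, had a difference of -0.34 ± 0.13. BTG1 and TOB1, antiproliferative partners of the deadenylase, had differences of -0.36 ± 0.13 and -0.27 ± 0.08. GADD45B went the other way, with 7.08 at 1 h and 7.65, 7.66 and 7.75 at 2, 3 and 4 h, but its probe sets had differences between -0.07 and 0.34. Of 15 measured stress phosphatase and mRNA decay genes, 7 were lower with separate sides (46.7%) and 2 were higher.

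The DUSP1 promoter is shown because it holds the full cyclic AMP response element (CRE, TGACGTCA), which was found in 3 of 13 promoters of that list (23.1%) and in 3.25% of the tested genes with a promoter. It lies at chr5:172771146-172771445 (minus strand, RefSeq, GRCh38.p14), with the element in capitals at -125:
DUSP1: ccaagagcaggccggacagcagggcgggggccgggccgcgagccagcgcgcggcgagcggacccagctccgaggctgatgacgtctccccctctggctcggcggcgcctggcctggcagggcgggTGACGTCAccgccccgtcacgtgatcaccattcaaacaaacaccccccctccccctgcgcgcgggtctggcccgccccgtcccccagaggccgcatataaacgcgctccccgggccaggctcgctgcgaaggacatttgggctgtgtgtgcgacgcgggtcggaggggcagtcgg
An E-box (CACGTG) lies at -108 in the same window, and the 2 motifs do not overlap.

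Most listed genes that FOXO factors and growth factor withdrawal maintain were lower. TXNIP, an inhibitor of thioredoxin and of glucose uptake, read 9.89, 9.51, 9.05 and 8.92 at 1, 2, 3 and 4 h. It averaged 8.99 at 3 to 4 h, against 9.70 at 1 to 2 h (difference -0.71 ± 0.14, adjusted p = 0.33 with limma). CCNG2, an unusual cyclin that holds cells out of the cycle, read 7.77, 7.25, 6.84 and 6.84 (difference -0.67 ± 0.15). Its probe sets disagreed, with differences between -0.68 and 0.07. YPEL2 and YPEL3 had differences of -0.61 ± 0.17 and -0.48 ± 0.08, and the probe sets of YPEL3 lay between -0.48 and 0.02. ERBB3, the neuregulin receptor, read 6.02 and 5.94 at 1 and 2 h and 5.45 and 5.51 at 3 and 4 h, so the step lay between the sides. KLHL24 had a difference of -0.56 ± 0.19, with probe sets between -0.60 and 0.08. Of 24 measured members, 13 were lower with separate sides (54.2%, against 24.9% of all genes) and 0 were higher. The median difference was -0.16. An unadjusted p under 0.05 with a lower value was met by 9 members, against 6.15% of all genes. The members that stayed near 0 included the FOXO genes themselves (FOXO1, FOXO3 and FOXO4 at -0.06, -0.09 and -0.04), the kinase inhibitor CDKN1B at 0.08 and the death gene BCL2L11 at 0.00.

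The arrays taken later give a view of the same genes that the difference did not use, though all arrays entered the filter on the mean. At 24 h, 19 of the 24 members stood above both the 6 h and 7 h arrays, against 41.2% of all genes, and 0 stood below both. Genes with negative differences tended to do so over the whole array (Pearson correlation of 0.54 with 6 to 7 h minus 24 h). TXNIP was 9.59 at 24 h, against 9.09 and 8.86 at 6 and 7 h. CCNG2 was 7.81 at 24 h, against 6.49 and 6.56.

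TXNIP is also the member of the 15 most negative genes whose promoter holds the FOXO motif searched (TGTTTAC, either strand), and it is shown for that reason. The window lies at chr1:145996530-145996829 (minus strand, RefSeq, GRCh38.p14), with the motif in capitals, read on the opposite strand, at -124:
TXNIP: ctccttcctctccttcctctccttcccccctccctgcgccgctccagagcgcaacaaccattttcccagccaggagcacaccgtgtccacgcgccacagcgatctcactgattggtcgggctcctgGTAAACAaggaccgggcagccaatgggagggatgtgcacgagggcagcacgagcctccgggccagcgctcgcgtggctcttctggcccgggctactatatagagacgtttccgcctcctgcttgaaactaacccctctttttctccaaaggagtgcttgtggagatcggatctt
The motif stood in 5 of 21 promoters of the FOXO and growth factor withdrawal list (23.8%), against 2.26% of the tested genes with a promoter. YPEL3 was among them, with the motif beginning at its start.

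The remaining genes among the 15 largest negative differences were on neither the immediate early list nor the FOXO and growth factor withdrawal list. These lists do not hold every gene of their class. GDPD1, a lysophospholipase D, read 6.40, 5.75, 4.99 and 5.14 at 1, 2, 3 and 4 h (difference -1.01 ± 0.19, 2.02-fold). It and FOS were the 2 genes past 2-fold with separate sides. TNFSF10, which encodes the death ligand TRAIL, read 7.04, 6.27, 5.71 and 5.78 (difference -0.91 ± 0.23). KLF9, a Krüppel-like factor that glucocorticoids induce, read 8.08, 7.61, 7.14 and 6.91 (difference -0.82 ± 0.17). CREBRF, a negative regulator of the factor CREB3, read 7.27, 6.80, 6.46 and 6.25. TP53INP1, a p53 target linked to autophagy, had a difference of -0.54 ± 0.14. ALPK3, KBTBD3, ZNF404 and SYTL1 had differences between -0.70 and -0.57. In all 15 genes the 1 h array was above the 2 h array. These genes were picked by their difference, which used both of these arrays. Their size and sign, and the order of the 1 and 2 h arrays, are therefore description. What the choice did not use is the later course: 13 of the 15 were higher at 24 h than at both 6 and 7 h (against 41.2% of all genes). The other 2, FOS and EGR1, were lower than both (against 31.2%). Over all genes the difference correlated at 0.54 (Pearson) with 6 to 7 h minus 24 h. A return at 24 h was thus a tendency over the whole array and not particular to these 15, but it was not shared by every list. In the immediate early list, 7 of 17 were above both the 6 h and 7 h arrays at 24 h, and 6 were below both. GDPD1 was 6.23 at 24 h, against 4.68 and 4.76 at 6 and 7 h.

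**Figure D1:**
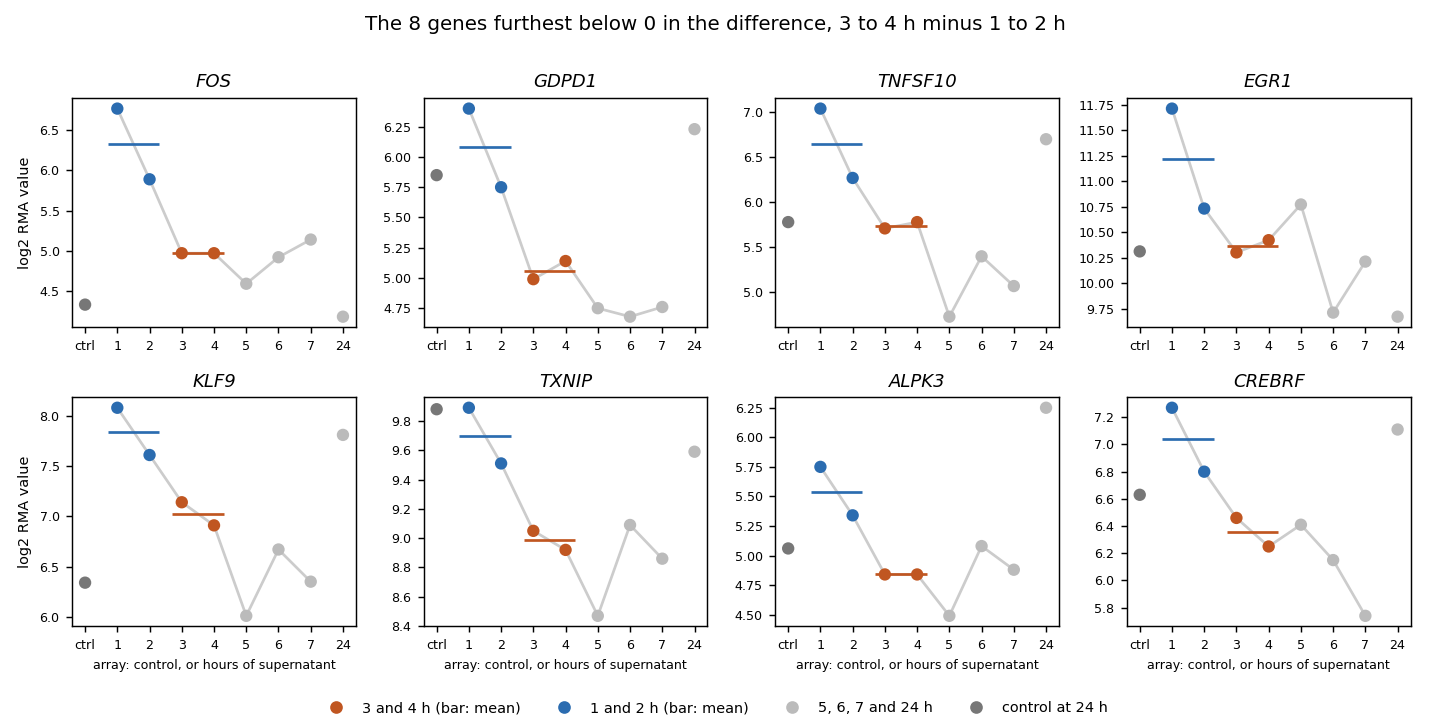
Log2 RMA value of 8 genes in each array, for the control and for 1 to 7 and 24 h of supernatant, with 1 point per array and bars for the means of 3 to 4 h and 1 to 2 h. FOS reads 4.97 at both 3 and 4 h, against 6.77 and 5.89 at 1 and 2 h, and GDPD1, TNFSF10 and KLF9 are high again at 24 h while FOS and EGR1 are not.

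The genes of DNA replication were higher at 3 to 4 h almost throughout. CCNE2, the cyclin that starts S phase, read 8.67, 8.90, 9.31 and 9.18 at 1, 2, 3 and 4 h (difference 0.46 ± 0.09, 1.38-fold, limma adjusted p = 0.33). MCM10, which activates the replicative helicase, read 8.52, 8.59, 8.95 and 9.05 (difference 0.44 ± 0.07). ORC6, of the origin recognition complex, read 9.98, 10.11, 10.42 and 10.41. GINS2, CDC45 and MCM5, parts of the helicase itself, had differences of 0.36 ± 0.11, 0.33 ± 0.08 and 0.34 ± 0.08, with the probe sets of GINS2 between -0.06 and 0.36. RRM2, which makes deoxynucleotides, and PCNA, the polymerase clamp, had differences of 0.30 and 0.23. All 43 measured members had a difference above 0, between 0.03 and 0.46. Separate sides with higher values were found in 37 (86.0%, against 17.7% of all genes) and with lower values in 0. An unadjusted p under 0.05 with a higher value was met by 25, against 3.79% of all genes. The median difference was 0.20. It was 0.24, 0.14, 0.26 and 0.16 in the pairs 3 h minus 1 h, 3 h minus 2 h, 4 h minus 1 h and 4 h minus 2 h. CCNE1 and UNG were near 0, at 0.06 and 0.03. The steps are small, with no member at 1.5-fold, but they lie on the same side of 0. In RNA from whole cultures, more cells in a phase and more RNA per cell cannot be told apart.

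Mitosis genes behaved likewise at these hours. MKI67, the proliferation marker, read 9.05, 9.21, 9.62 and 9.41 (difference 0.38 ± 0.10). KIF23, a kinesin of the dividing cell's midbody, read 8.60, 8.52, 8.97 and 8.83. KNL1 and NUF2 of the kinetochore had differences of 0.29 ± 0.07 each. CCNA2, the S and G2 cyclin, had a difference of 0.27 ± 0.07. Of 48 measured members, 39 were higher with separate sides (81.2%, against 17.7% of all genes) and 1, CDC25C, was lower, at -0.12. CCNB1 and PLK1, which act at mitotic entry, had differences of 0.09 and 0.08. The median difference was 0.17.

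Ribosome biogenesis genes were higher by less. LYAR, a nucleolar factor in ribosomal RNA processing, read 8.74, 8.79, 9.04 and 9.14 (difference 0.33 ± 0.13). NOP58, a core protein of box C/D snoRNPs, read 11.42, 11.54, 11.70 and 11.76 (difference 0.25 ± 0.08). RRS1, NOP2 and GRWD1 had differences of 0.20 ± 0.07, 0.19 ± 0.06 and 0.17 ± 0.06. Of 35 measured members, 19 were higher with separate sides (54.3%, against 17.7% of all genes) and 1, HEATR1, was lower. The median difference was 0.08, while the standard errors of single members lay between 0.06 and 0.16.

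**Figure D2:**
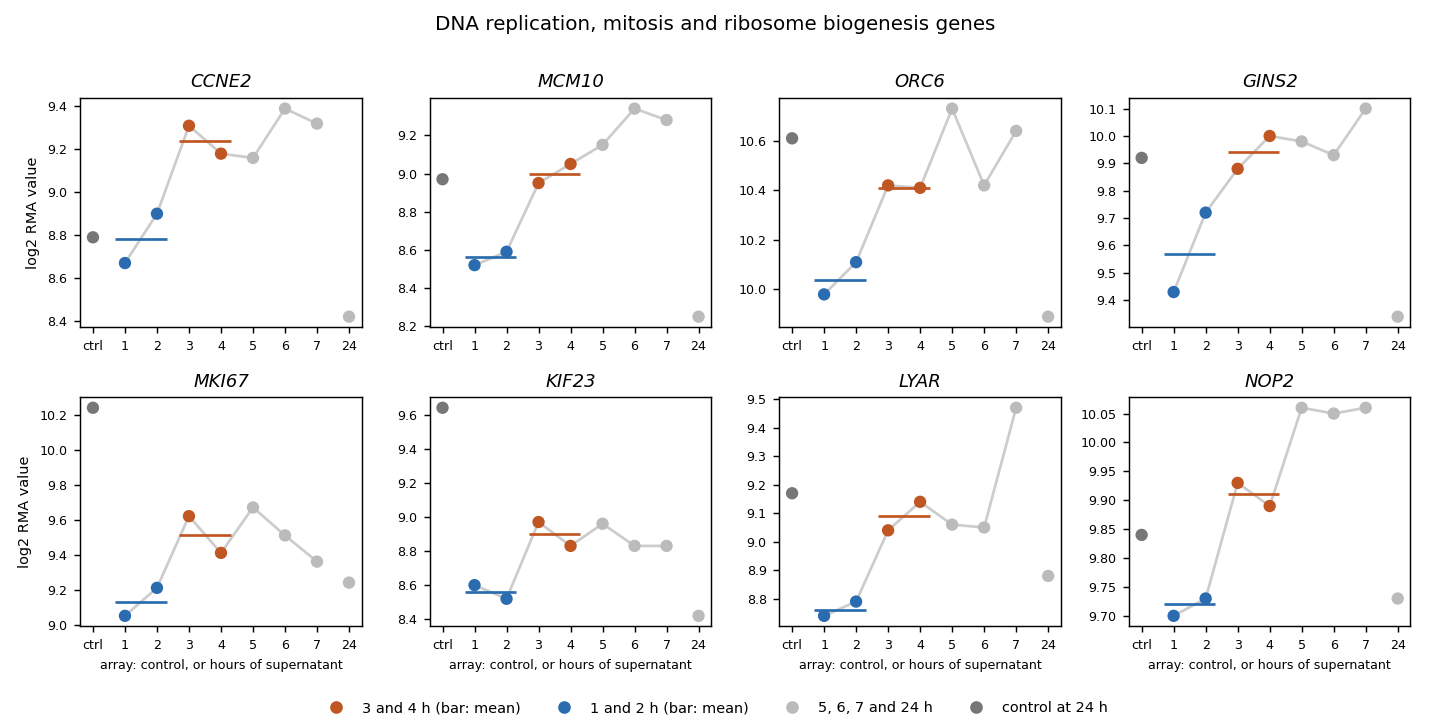
Log2 RMA value of 8 genes of DNA replication (CCNE2, MCM10, ORC6, GINS2), mitosis (MKI67, KIF23) and ribosome biogenesis (LYAR, NOP2) in each array, with 1 point per array and bars for the means of 3 to 4 h and 1 to 2 h. In each gene both points of 3 and 4 h lie above both points of 1 and 2 h, and the replication genes are low again at 24 h (MCM10 8.25).

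The 3 groups differed in degree at the later arrays. After 24 h, 43 of 43 replication genes stood below both the 6 h and 7 h arrays (against 31.2% of all genes), with a median of -0.46 for 24 h minus the mean of 6 and 7 h. MCM10 was 8.25 at 24 h, against 9.34 and 9.28 at 6 and 7 h. Ribosome biogenesis genes did so in 31 of 35. Mitosis genes did so in 27 of 48. In all 48 the control array was above the 24 h array (against 45.8% of all genes). The median of 24 h minus control was -0.85. The control array was also above in 40 of 43 replication genes (median -0.37) and 27 of 35 ribosome biogenesis genes (median -0.14). MKI67 was 9.24 at 24 h, against 10.24 in the control. At 4 h the median of gene-centred values was -0.04 for mitosis genes, against 0.66 in the control, and 0.07 for replication genes, against 0.08 in the control. Every comparison with the control rests on 1 array.

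Motifs of the textbook regulators were counted in the promoters of these groups. The E2F motif TTTCCCGC stood in 11 of 38 replication promoters (28.9%, against 2.66% of tested genes), and a second form, TTTGGCGC, in 8 (21.1%, against 1.03%). The CCAAT box, bound by NF-Y, stood in 31 of 39 mitosis promoters (79.5%, against 36.4%). The E-box CACGTG, bound by MYC and its relatives, stood in 12 of 30 ribosome biogenesis promoters (40.0%, against 10.2%). Both strands were searched, and these motifs do not contain one another. The shares describe the lists, which were drawn up from such knowledge, and say nothing of these hours. A replication, a mitosis and a ribosome biogenesis gene with the motif are shown, with the motif in capitals. GINS2 is at chr16:85688905-85689204 (minus strand, motif at -31, read on the opposite strand), CCNA2 at chr4:121823834-121824133 (minus strand, motif at -56, read on the opposite strand) and NOP2 at chr12:6568242-6568541 (minus strand, motif at 35), all RefSeq, GRCh38.p14:
GINS2: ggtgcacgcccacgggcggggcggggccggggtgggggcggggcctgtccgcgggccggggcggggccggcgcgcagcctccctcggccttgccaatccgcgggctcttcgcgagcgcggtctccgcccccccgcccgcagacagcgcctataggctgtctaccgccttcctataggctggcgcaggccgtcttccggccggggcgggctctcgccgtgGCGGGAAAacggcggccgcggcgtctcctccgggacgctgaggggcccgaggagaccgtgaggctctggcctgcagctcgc
CCNA2: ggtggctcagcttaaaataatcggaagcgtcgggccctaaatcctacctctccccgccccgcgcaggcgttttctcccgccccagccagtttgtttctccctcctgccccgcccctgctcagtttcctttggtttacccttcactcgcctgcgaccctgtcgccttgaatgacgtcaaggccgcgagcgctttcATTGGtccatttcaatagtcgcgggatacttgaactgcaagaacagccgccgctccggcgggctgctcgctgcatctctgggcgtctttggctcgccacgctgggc
NOP2: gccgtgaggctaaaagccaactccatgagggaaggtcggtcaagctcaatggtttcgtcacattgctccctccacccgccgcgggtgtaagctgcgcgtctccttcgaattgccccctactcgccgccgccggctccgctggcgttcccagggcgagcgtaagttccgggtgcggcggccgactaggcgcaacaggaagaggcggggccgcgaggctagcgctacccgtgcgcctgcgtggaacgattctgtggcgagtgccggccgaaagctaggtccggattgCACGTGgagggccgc
In NOP2 the E-box lies after the start and in the other 2 genes the motif lies before it.

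Among genes with separate sides, the largest positive differences belonged mostly to other genes, many of them noncoding. FTX, a long noncoding RNA gene of the X inactivation centre, read 6.98, 7.13, 7.25 and 8.41 at 1, 2, 3 and 4 h (difference 0.77 ± 0.40), so the 4 h array alone carried most of it. GTF2H2B, a transcribed pseudogene of a TFIIH subunit, read 7.31, 7.48, 8.03 and 7.99 (difference 0.61 ± 0.08, adjusted p = 0.33 with limma). It has near-identical copies that the probes may not tell apart. LOC100190986, a long noncoding RNA gene, read 6.36, 6.51, 6.88 and 7.19 (difference 0.60 ± 0.11). MIR181A2HG, the host transcript of a microRNA, read 5.08, 4.52, 5.44 and 5.39. RUSC1-AS1 is antisense to RUSC1, and its probe sets had differences between 0.05 and 0.59. Of the 15 largest of these, 7 belonged to protein-coding genes, among them the BMP pseudoreceptor BAMBI, the DNA glycosylase NEIL3, the desaturase SCD5 and CCNE2. The probe sets of SCD5 had differences between -0.19 and 0.46. Long noncoding RNA genes as a class were not higher: 15.7% of 693 had separate sides with higher values and 19.0% with lower values.

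These top genes followed the 2 arrays that stood apart. The 5 h array was above both the 6 h and 7 h arrays in 13 of the 15 (against 20.4% of all genes). The control array was above the 24 h array in 12 (against 45.8%). FTX was 9.60 at 5 h, against 7.76 and 6.86 at 6 and 7 h, and GTF2H2B was 9.27 at 5 h, against 7.79 and 7.72. At 24 h GTF2H2B was 7.53, against 9.10 in the control. None of these arrays entered the difference that chose the genes, though all of them entered the filter on the mean. Over all genes, that difference correlated at 0.35 with 5 h minus 6 to 7 h and at 0.34 with control minus 24 h (Pearson). The 5 h array also had the largest 3′ excess of both ACTB and GAPDH. In the control the excess of GAPDH, 0.154, was the second highest of the 9 arrays. The excess of ACTB in the control, 1.86, was below that at 24 h, 1.90. Their part in these genes was not tested.

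**Figure D3:**
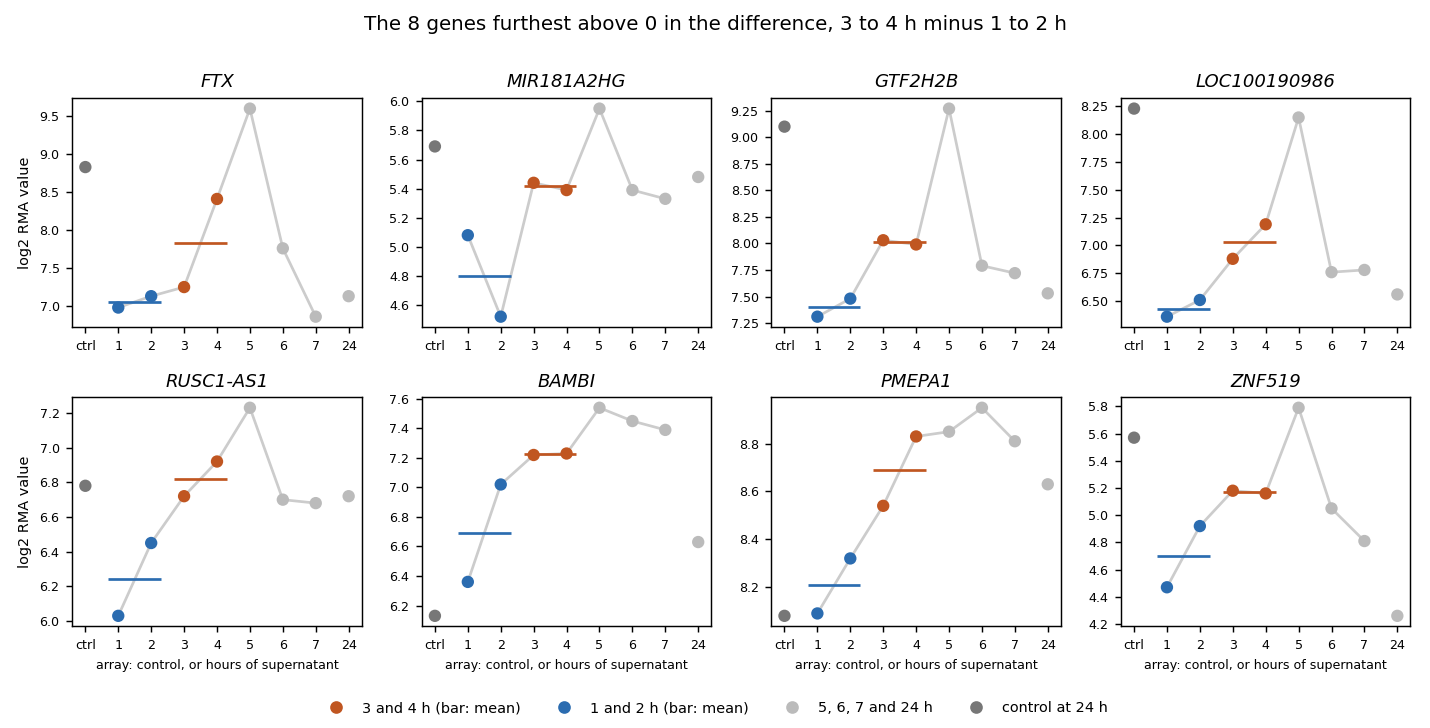
Log2 RMA value in each array of the 8 genes with separate sides and the largest positive differences, with 1 point per array and bars for the means of 3 to 4 h and 1 to 2 h. FTX, GTF2H2B and LOC100190986 are highest at 5 h and in the control, whereas BAMBI and PMEPA1 stay up to 7 h and are low in the control (6.13 and 8.08).

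BAMBI and PMEPA1, both feedback inhibitors that TGF-beta induces, had a different course from the noncoding genes. BAMBI read 6.36, 7.02, 7.22 and 7.23 at 1, 2, 3 and 4 h (difference 0.54 ± 0.19) and was 6.63 at 24 h, against 6.13 in the control. PMEPA1 read 8.09, 8.32, 8.54 and 8.83 (difference 0.48 ± 0.12) and was 8.63 at 24 h, against 8.08 in the control. LTBP2, which binds latent TGF-beta in the matrix, had a difference of 0.24 ± 0.09. The ligand gene TGFB1 was lower, with 6.71 and 6.67 at 1 and 2 h and 6.17 and 6.22 at 3 and 4 h (difference -0.49 ± 0.07). BHLHE40, a repressor that TGF-beta and the clock regulate, was also lower, at 8.77 on both early arrays and 8.34 and 8.21 on the later ones. Of 15 measured TGF-beta response genes, 3 were higher with separate sides (20%) and 4 were lower (26.7%), so the list as a whole was near the background. In the BMP and Notch group, SMAD9, a receptor-regulated SMAD, was higher (7.13, 7.10, 7.47 and 7.54) and HES1, a Notch target repressor, was lower (8.58, 8.59, 8.29 and 8.19). ID1 read 11.75, 11.67, 11.56 and 11.42.

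Some transcripts were higher at 2 h than at 1 h, a step inside the early side that the difference between sides cannot show. The following genes were chosen after their values were seen, from the largest differences between the 2 h and 1 h arrays, and each rests on 1 array per hour. MT1M, a metallothionein, read 4.88, 6.94, 6.32 and 5.96 at 1, 2, 3 and 4 h, a step of 2.06 between 1 and 2 h. SLC30A1, the zinc exporter that zinc induces through MTF1, read 10.13, 11.65, 11.29 and 10.80. MT1F and MT1E shared the step, with 11.55 and 12.22 for MT1F and 12.99 and 13.45 for MT1E at 1 and 2 h. These metallothionein genes are near-identical copies that probes may not tell apart. The zinc and metallothionein list therefore had a median of 0.31 for 3 h minus 1 h and of -0.18 for 3 h minus 2 h. SLC39A10, a zinc importer, was lower at each hour (11.76, 11.52, 11.34 and 11.21). SNAI2, a repressor of epithelial genes, read 4.64, 5.62, 5.32 and 5.30, and ID2 read 8.63, 9.28, 9.27 and 8.94. MAP3K14, the kinase NIK of the noncanonical NF-kB route, read 6.98, 7.69, 7.47 and 7.60. RELB, its downstream factor, read 5.52, 6.13, 5.47 and 5.83. Over all genes, 29 differed at least 1.5-fold between 2 h and 1 h, 12 between 4 h and 3 h and 32 between 7 h and 6 h. The pairs across the sides gave 72 (3 h and 1 h), 11 (3 h and 2 h), 83 (4 h and 1 h) and 31 (4 h and 2 h). By this count the 1 h array lay farther from both later arrays than the 2 h array did.

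The other signalling and stress lists ranged from shares near those of all genes to shares as large as in the groups already described. Over all genes, 24.9% were lower and 17.7% higher with separate sides. Krüppel-like factors were lower with separate sides in 5 of 10 and EGF receptor family genes in 5 of 9 (55.6%), with medians of -0.13 and -0.10. Cytoskeletal targets of SRF were lower in 7 of 13 (53.8%), with a median of -0.03. Interferon response genes were lower with separate sides in 8 of 22 (36.4%), led by IRF9, part of the interferon transcription complex (7.14, 6.68, 6.47 and 6.33, difference -0.51 ± 0.14). NF-kB targets were lower in 5 of 16 (31.2%) with a median of -0.06. TNFAIP3 and NFKBIZ had differences of -0.26 ± 0.07 and -0.31 ± 0.14, while CXCL1, a chemokine, read 10.10, 10.49, 10.46 and 10.61. The gp130 and STAT3 list, which holds the pathway of LIF and IL-6, was lower in 6 of 14 (42.9%). JUNB is counted there too, and the members SOCS3 and LIFR had differences of -0.15 ± 0.09 and -0.18 ± 0.11. MXI1 and MNT, antagonists of MYC, had differences of -0.28 ± 0.07 and -0.31 ± 0.09. Heat shock genes were higher in 8 of 16 (50%), led by CHORDC1, an HSP90 partner, at 0.32 ± 0.08, but the median was only 0.03. Splicing factors and CLK kinases were higher in 13 of 22 (59.1%) with a median of 0.06. CLK1 read 7.81, 8.28, 8.29 and 8.38, so its step lay between 1 and 2 h. Matrix proteases and their inhibitors were lower in 6 of 12 (50%) with a median of -0.08. YAP targets were lower in 4 of 11 (36.4%, against 24.9% of all genes) with a median of -0.06. Differences of YAP targets lay between -0.10 and 0.22, and 0 had an unadjusted p under 0.05 by limma.

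Programmes with medians within 0.03 of 0 included cholesterol synthesis (17 measured), the integrated stress response (23), aminoacyl-tRNA synthetases (17), fatty acid synthesis (9), hypoxia and glycolysis (20), NRF2 targets (15) and the unfolded protein response (21). Single members stood out of some of them. HMGCS1, an enzyme of sterol synthesis, read 7.36, 7.46, 7.60 and 7.75, with probe sets between -0.10 and 0.26. ADM, which encodes the peptide adrenomedullin, had a difference of 0.38 ± 0.16. AKR1C1, an aldo-keto reductase and NRF2 target, had a difference of 0.19 ± 0.08.

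**Figure D4:**
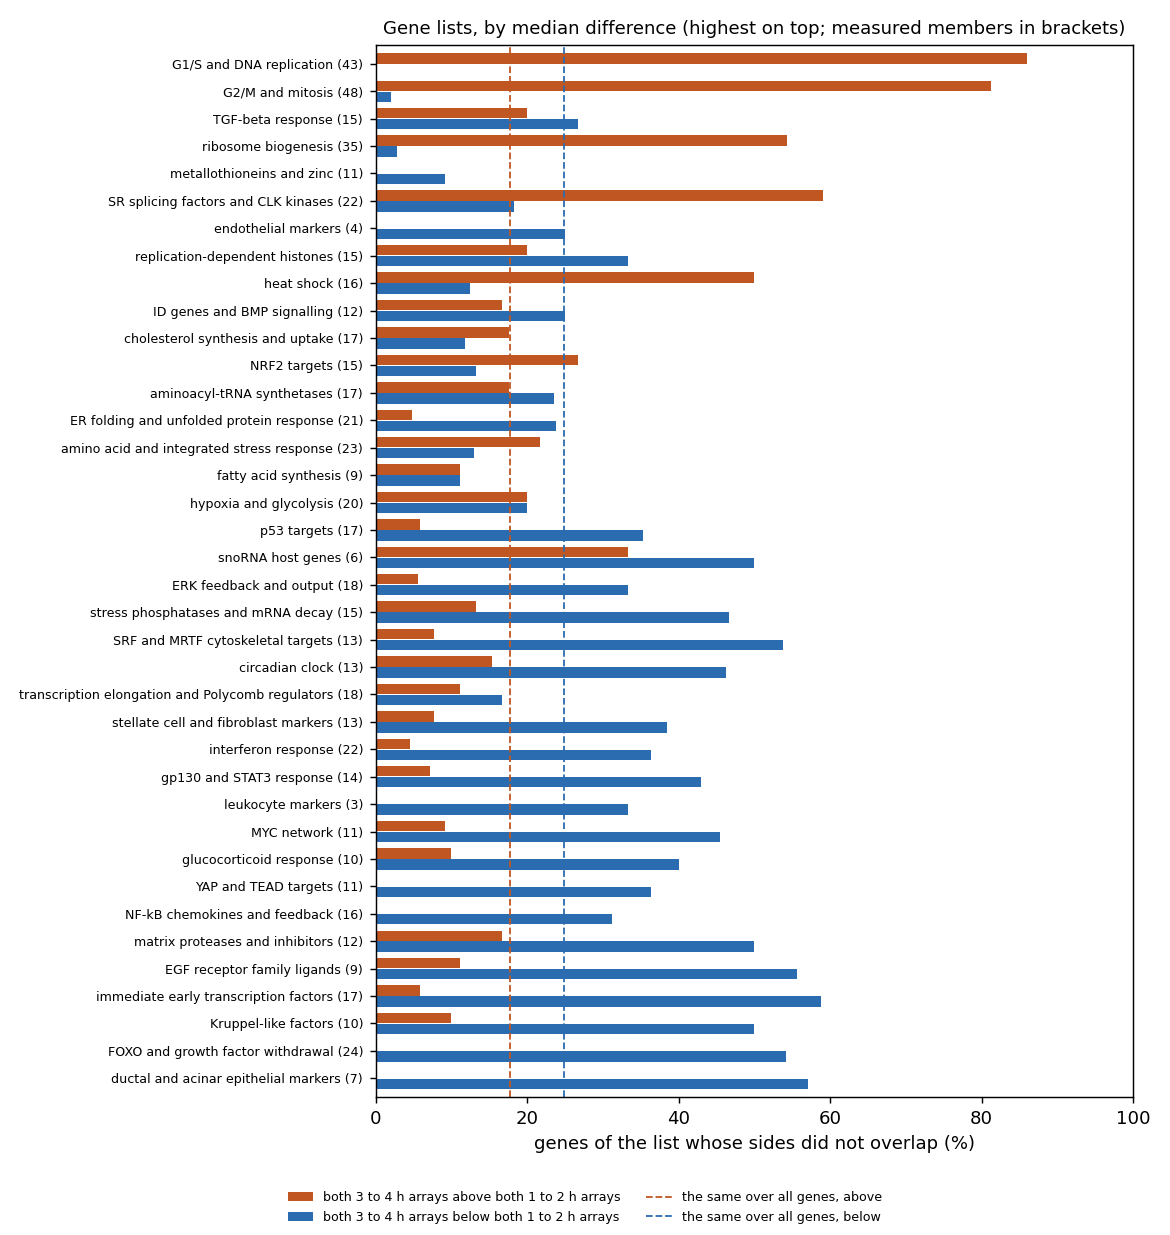
Share of the measured genes of each of 38 lists whose 3 and 4 h arrays both lay above (first bar) or both lay below (second bar) both 1 and 2 h arrays, with dashed lines for the shares over all genes, 17.7% above and 24.9% below. DNA replication (86.0%) and mitosis (81.2%) exceed the line on the upper side, and immediate early factors (58.8%) and FOXO-type genes (54.2%) on the lower side, as do EGF receptor family genes (55.6%) and others.

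The agreement between separate pairs of arrays was modest over all genes. Across 12402 genes, the difference 3 h minus 1 h and the difference 4 h minus 2 h, which share no array, had a Pearson correlation of 0.25 and a Spearman correlation of 0.26. The crossed pairs, 4 h minus 1 h and 3 h minus 2 h, gave 0.32 and 0.31. The genes are not independent replicates, and all pairs share the normalization. Set against differences between arrays outside the comparison, the difference of 3 to 4 h minus 1 to 2 h correlated at 0.54 (Spearman 0.51) with 6 to 7 h minus 24 h, and at 0.35 (0.31) with 5 h minus 6 to 7 h. With control minus 24 h it correlated at 0.34 (0.30). Genes lower at 3 to 4 h than at 1 to 2 h thus tended to be lower at 6 to 7 h than at 24 h.

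The next window, 6 to 7 h against 3 to 4 h, gave 0 genes at an adjusted p under 0.05 by limma, with 616 at an unadjusted p under 0.05. The test of whether the course bends between the windows likewise gave 0, with 503 at an unadjusted p. A change in pace between the first and the second step was thus not shown for any gene. By value, the FOXO-type list went on with a median of -0.11 for 6 to 7 h minus 3 to 4 h and the replication list with 0.08. The mitosis list gave -0.07 and the immediate early list -0.06. FOS had a further difference of 0.06 and KLF9 of -0.51.

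**Figure D5:**
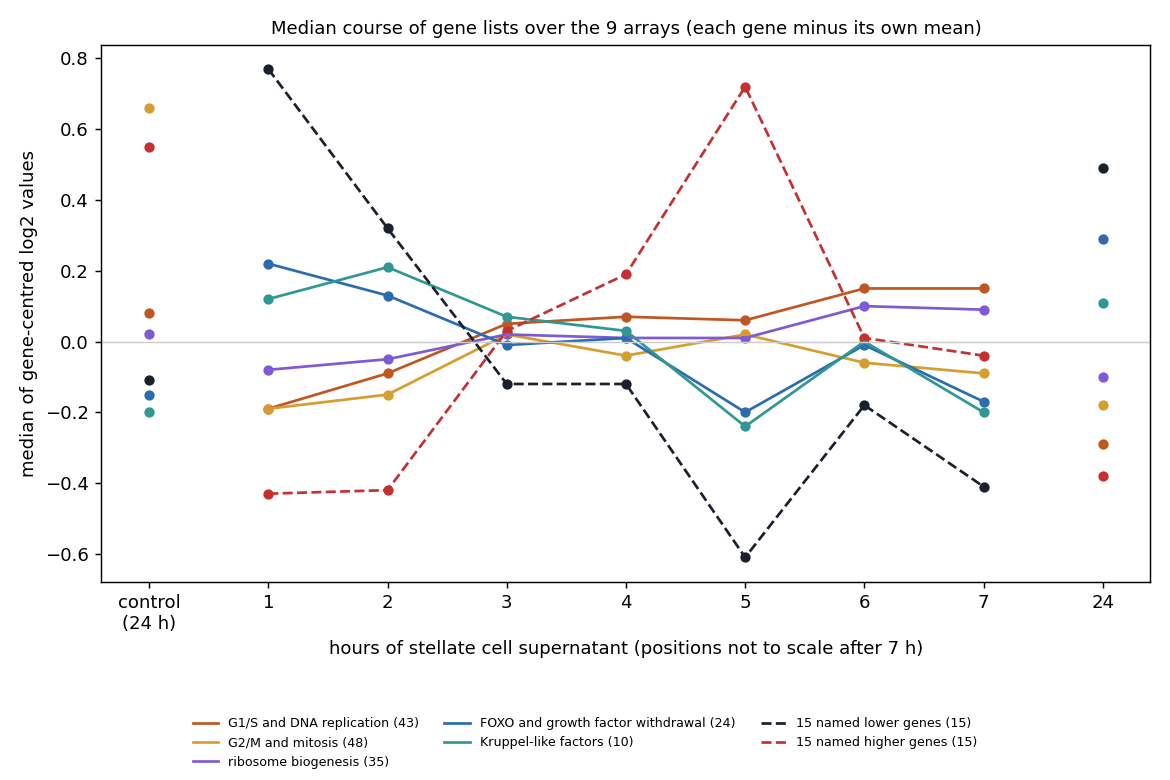
Median over the members of 5 gene lists, and of the 15 genes with the largest difference in each direction (dashed), of log2 values centred on each gene's own mean, for the control and each hour of supernatant; numbers in brackets are genes. Replication genes run from -0.19 at 1 h to 0.15 at 7 h and are at -0.29 at 24 h, mitosis genes are at 0.66 in the control, and the 15 higher genes have their maximum, 0.72, at 5 h.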

How the data were processed

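Total RNA was measured on 9 Affymetrix arrays, 1 per sample. The deposited values are on a log2 scale and were made with RMA, per the submitters' processing notes; its version is not stated in the labels. Of 54675 probe sets, 41097 had 1 gene symbol, 1801 several and 11777 none, and 41043 of the first matched a GRCh38.p14 gene table by Entrez ID. Where a gene had several such probe sets, the one brightest on average over the 9 arrays was used. This gave 19775 genes, of which 12402 averaged 5 or more and were tested. The authors' filtered table of 6370 probe sets served as an alternative. Groups were taken from the labelled hours. limma 3.58.1 in R 4.3.3 was fitted to 6 arrays in windows of 1 to 2 h, 3 to 4 h and 6 to 7 h, with Benjamini-Hochberg adjustment over all genes and a threshold of 0.05, and was tested on simulated data. The p-values measure only the scatter between these arrays. Promoters were RefSeq windows of 300 bases. The genes named were, among those with separate sides, the 15 with the largest difference in each direction and up to 6 members of each of 38 lists by the size of the difference; members and lists were chosen with earlier results of these data known. List members beyond these, and the E2F and CCAAT motifs, were added after values were seen. Precision is limited by the 2 arrays on each side.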

Additional observations from a re-analysis of the deposited data

How the results depend on the processing

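With 0 genes at an adjusted p under 0.05, the same count came from every alternative run but the authors' filtered table. There 1 gene of 3624 tested, FOS, passed (limma adjusted p = 0.0163). Its difference was -1.36 in both runs, but its unadjusted limma p was 4.49e-06 there, against 0.00107 in the main run. Other rules gave 1233 genes (unadjusted p) and 17 (at least 1.5-fold with separate sides). The count at an unadjusted p under 0.05 was 309 higher and 379 lower with the 5 h array joined to 6 to 7 h, and 193 and 215 in the filtered table. Leaving out 1 array gave 222 to 540 higher and 372 to 1039 lower. The lower count was 372 without the 1 h array, 411 without 3 h and 425 without 4 h, and the higher count was 222 without 4 h. Genes past 1.5-fold were 3 higher and 6 lower as the mean over probe sets, 26 higher in the filtered table, 0 higher among protein-coding genes and 6 lower at a mean of at least 6. The cause of these differences was not tested. The 15 genes of each direction kept their sign in every alternative that measured them. Of all 234 named genes, 20 had the other sign without the 1 h array. No paired analysis was possible because the labels give no replicate numbers. The single-hour pairs were added after seeing the data. Small medians, such as that of ribosome biogenesis, are limited by 2 arrays per side.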

Other observations

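Several further lists were lower at 3 to 4 h than at 1 to 2 h in single members. DBP, an output gene of the circadian clock, read 7.77, 7.54, 7.30 and 7.23 at 1, 2, 3 and 4 h, while CLOCK and PER2 had differences of 0.13 ± 0.15 and 0.17 ± 0.19. Of 13 clock genes, 6 were lower with separate sides (46.2%, against 24.9% of all genes) and 2 higher. TSC22D3, a glucocorticoid-induced leucine zipper, had a difference of -0.41 ± 0.16, but FKBP5, a usual marker of the same hormone, had a difference of 0.09 ± 0.07, with probe sets between -0.08 and 0.09. CDKN1A and SESN2, p53 targets in many cells, had differences of -0.18 ± 0.06 and -0.27 ± 0.08, with the probe sets of SESN2 between -0.27 and 0.05, and 6 of 17 p53 targets were lower (35.3%). MUC1, an epithelial mucin, read 7.52, 7.39, 6.98 and 7.05.

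The S phase histone genes measured did not show the higher values of the replication genes, but they read low. Of 37 replication-dependent histone genes with a probe set, 15 averaged 5 or more. Their median level at 3 h was 5.83, against 9.69 for the replication genes, which limits what the list can show. Of these 15 histone genes, 3 were higher with separate sides (20%) and 5 were lower (33.3%). Over all genes these shares were 17.7% and 24.9%. H2BC21 read 5.83, 5.85, 5.38 and 5.25 at 1, 2, 3 and 4 h, and H2AC6 read 7.00, 6.78, 6.61 and 6.58. Most histone mRNAs of this class lack a poly(A) tail, as background. The collagen genes COL1A2 and COL3A1, measured in the tumour cells, had differences of -0.24 ± 0.08 and -0.21 ± 0.07, but the probe sets of COL1A2 lay between -0.24 and 0.34.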
